A study of Mus musculus with 6 samples.

Results

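The 10 glycolytic enzyme genes Hk1, Hk2, Gpi1, Pfkp, Pfkl, Aldoa, Gapdh, Pgk1, Eno1 and Ldha were followed in mouse retina. Probes outside the control spots whose systematic name is a RefSeq identifier of one of these genes were taken, which gave 22 probes among 39429. Probes that carry a member's gene name without such an identifier were not searched for. Gapdh had 7 probes, Gpi1 and Ldha had 3 each, Hk1 and Pfkp had 2 each, and the other members had 1 each. For tests per gene the brightest probe was used, and the 10 members are 10 of the 24055 genes tested. All 22 probes passed the filter on dim probes, and all 22 were well above the local background in both channels on all 6 arrays, with no saturated spot (0).

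The 6 arrays are two-colour Agilent 4x44K mouse arrays, on which a pair of RNA samples labelled with different dyes binds to the same spots. SH-42 and SH-80, compounds known here only by these code names, have 3 arrays each. Adult male C57BL/6 mice, 12 in a group, were given 1 µM of SH-42 or of SH-80, or phosphate-buffered saline for the control, by injection into the right vitreous, and the retina was collected on day 7. RNA came from pools of 4 retinas, so each value is the average of several animals and the spread between single animals is not seen. By the labels the Cy3 (green) channel holds the compound and the Cy5 (red) channel the control on every array, with no exchange of dyes. An offset of a probe between the dyes and an effect of a compound therefore cannot be told apart in a log ratio, also where all arrays share a sign. With 12 control mice pooled by 4, only 3 control pools could have served the 6 arrays. The labels do not say whether arrays shared a pool, so the p-values measure the spread between these arrays, part of which may be technical.

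Glycolysis splits glucose into pyruvate in the cytosol. Hexokinases trap glucose as glucose 6-phosphate, phosphofructokinase commits it to the pathway, glyceraldehyde-3-phosphate dehydrogenase and phosphoglycerate kinase carry the first steps that return ATP and NADH, enolase prepares the last ATP-yielding step, and lactate dehydrogenase turns pyruvate into lactate and restores NAD+. The retina, and its photoreceptors above all, is known for making lactate from glucose even when oxygen is plentiful. Hk2 and Ldha are known as photoreceptor forms there, and Hk1 as the hexokinase that most retinal cells use.

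Of all spots, 58.3% to 63.1% stood well above background in Cy3, against 70.9% to 76.7% in Cy5. SH-42 replicate 1 stood apart. Its log ratios correlated across genes, which are not independent replicates, at r between -0.159 and 0.162 with those of the other 5 arrays, against 0.472 to 0.866 for the remaining 10 pairs. Values are therefore also given without it. SH-42 replicates 1 and 2 were on one slide, and SH-42 replicate 3 was on a second slide with the 3 SH-80 arrays. Signed values are log2 ratios of Cy3 to Cy5, by the labels compound over control. Where a gene is said to rise or fall, this ratio is meant. The value table deposited for the series runs the other way, as Cy5 over Cy3, and if the Cy5 channel held the RNA of treated eyes the sign of every log ratio below would turn, while differences between compounds within 1 channel would keep theirs. In whole retina, fewer cells of a type and less RNA in each cell cannot be told apart.

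The promoters of 4 members are printed to show the sequence around the starts of the 3 genes that passed a test below, Hk1, Pfkp and Gapdh, and of Ldha, whose window held the most matches to the motif searched. The motif was the 5 letters ACGTG on either strand (CACGT on the printed strand). It is a form of the core of the hypoxia response element bound by hypoxia-inducible factors. The form with G as the first letter, GCGTG, was not searched. Of the windows printed, those of Pfkp, Gapdh and Ldha and the second window of Hk1 hold it. Each window holds 300 bases around an annotated transcript start, read 5′ to 3′ on the gene's strand, from RefSeq on build GRCm38.p6. Capitals mark the motif. A run of CACGTG counts on both strands.
Hk1 (chr10:62379859-62380158, minus strand): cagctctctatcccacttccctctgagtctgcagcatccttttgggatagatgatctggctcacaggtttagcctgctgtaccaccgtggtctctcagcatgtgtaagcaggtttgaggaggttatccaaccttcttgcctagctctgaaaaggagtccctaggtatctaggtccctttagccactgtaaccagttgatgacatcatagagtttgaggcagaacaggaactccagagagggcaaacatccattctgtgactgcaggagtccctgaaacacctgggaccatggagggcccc
Hk1, second start (chr10:62340372-62340671, minus strand): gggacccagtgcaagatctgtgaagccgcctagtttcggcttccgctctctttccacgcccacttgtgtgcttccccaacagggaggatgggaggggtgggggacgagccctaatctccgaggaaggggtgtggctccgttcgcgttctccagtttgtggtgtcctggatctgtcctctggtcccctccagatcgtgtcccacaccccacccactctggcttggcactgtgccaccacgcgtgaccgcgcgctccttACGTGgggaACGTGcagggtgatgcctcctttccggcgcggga
Pfkp (chr13:6648722-6649021, minus strand): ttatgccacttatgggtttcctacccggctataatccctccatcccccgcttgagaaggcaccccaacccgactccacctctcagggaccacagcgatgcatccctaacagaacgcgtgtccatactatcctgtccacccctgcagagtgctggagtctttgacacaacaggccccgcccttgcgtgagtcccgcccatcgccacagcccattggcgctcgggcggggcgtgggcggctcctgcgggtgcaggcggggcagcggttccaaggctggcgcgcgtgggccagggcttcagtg
Gapdh (chr6:125165724-125166023, minus strand): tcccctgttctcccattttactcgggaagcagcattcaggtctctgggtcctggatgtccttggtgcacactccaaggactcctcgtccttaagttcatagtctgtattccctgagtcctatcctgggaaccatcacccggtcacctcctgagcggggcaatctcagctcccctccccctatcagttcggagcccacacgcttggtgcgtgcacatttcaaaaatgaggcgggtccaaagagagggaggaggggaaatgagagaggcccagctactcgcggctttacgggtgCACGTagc
Ldha (chr7:46845554-46845853, plus strand): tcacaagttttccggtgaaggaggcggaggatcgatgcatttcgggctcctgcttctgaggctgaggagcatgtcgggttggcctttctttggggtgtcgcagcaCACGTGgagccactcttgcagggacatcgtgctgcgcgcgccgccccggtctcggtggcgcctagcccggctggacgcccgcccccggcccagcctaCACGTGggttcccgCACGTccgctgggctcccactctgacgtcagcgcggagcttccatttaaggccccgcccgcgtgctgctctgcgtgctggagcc
The Ldha window held 5 matches, 4 of them from 2 runs of CACGTG. The second Hk1 window held 2, the Gapdh window held 1, and the first Hk1 window and the Pfkp window held 0. The table lists 16 windows for the 10 members, and 7 of them (43.8%), from 6 members, held the motif. The share among all 32851 windows listed was 19.6%. A match is only a run of letters, and no match says only that these letters are absent from this window.

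Against the control channel, Pfkp, the platelet form of phosphofructokinase, was the 1 member that was higher on SH-42 arrays, at 1.43-fold. On SH-80 arrays 2 members were lower, Gapdh at 0.702-fold and Hk1 at 0.738-fold, and none was higher (0). The share of all genes called higher on SH-42 arrays was 0.054% and the share called lower was 0.545%. On SH-80 arrays these shares were 4.61% and 10.1%, and against that background 2 lower among 10 members is not a result about the members as a group. In either direction 0.599% of all genes were called for SH-42 and 14.7% for SH-80. At an unadjusted p under 0.05, 3 members were higher and 3 were lower on SH-42 arrays, where the background was 9.21% and 14.2% of all genes. On SH-80 arrays 1 member was higher and 5 were lower, where the background was 13.3% and 22.2%. The median over the 10 members was 0.018 on SH-42 arrays and -0.199 on SH-80 arrays, beside medians over all genes of -0.034 and -0.03. For SH-80 the place of the members relative to all genes depended on the processing. With the scanner's processed signals the members' median was -0.023 and that of all genes -0.065, and in the deposited value table they were -0.014 and -0.056. With slide as a fixed effect the members' SH-80 median was -0.11 (all genes -0.034). All SH-80 arrays were on the second slide, so that slide effect came from the SH-42 arrays alone, SH-42 replicate 1 among them. Values for both compounds come from one limma fit over the 6 arrays, with Benjamini-Hochberg adjustment over all genes, after loess normalization of each array. With median centring in place of loess, the median of all genes moved to -0.245 for SH-42 and -0.149 for SH-80, and 9 of 10 and 10 of 10 members were below 0. Hk2 was then at -0.17 and -0.23, Pfkl at -0.24 and -0.15, and Pfkp at 0.01 and -0.02, so the signs of these 3 are relative to the loess curve.

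**Figure D1:**
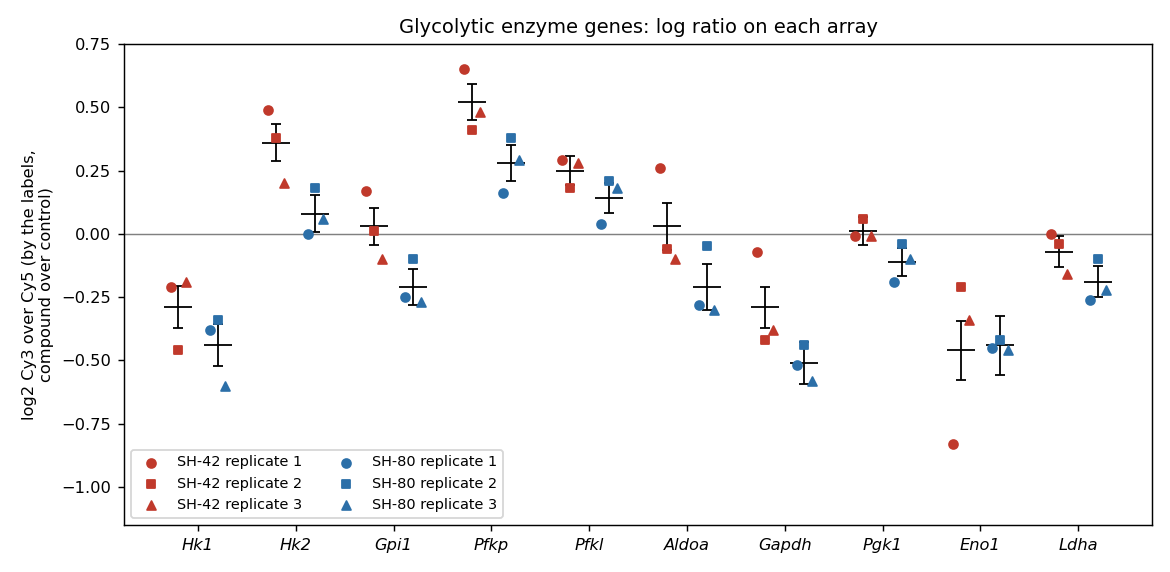
Log2 ratio of Cy3 to Cy5 (by the labels, compound over control; after loess) of the 10 members (brightest probe) on each of the 3 SH-42 arrays (red, left) and 3 SH-80 arrays (blue, right); the black bar and whiskers are the fitted value ± SE. Pfkp and Pfkl lay above 0 on all 6 arrays and Hk1, Gapdh and Eno1 lay below 0 on all 6, while SH-42 replicate 1 was the lowest point of Eno1 at -0.83.

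Among the hexokinases, Hk1 had log ratios of -0.21, -0.46 and -0.19 with SH-42, against -0.38, -0.34 and -0.60 with SH-80. All 6 were below 0 and the compounds overlapped. The fitted value was -0.29 ± 0.0819 for SH-42 (SE, n = 3 arrays, limma adjusted p = 0.148), and Hk1 fell by 0.44 ± 0.0819 for SH-80 (adjusted p = 0.0295). Hk2, the inducible hexokinase, stood the other way, with 0.49, 0.38 and 0.20 on the SH-42 arrays, and 0, 0.18 and 0.06 on the SH-80 arrays. Every SH-42 array was above every SH-80 array. The fitted Hk2 value of 0.36 ± 0.0736 for SH-42 did not pass (limma adjusted p = 0.109), nor did the 0.08 for SH-80 (adjusted p = 0.484). Under SH-42 the hexokinases thus had opposite signs after loess, with 95% intervals of -0.49 to -0.09 for Hk1 and 0.18 to 0.54 for Hk2.

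Gpi1, glucose-6-phosphate isomerase, lay near 0 on SH-42 arrays at 0.17, 0.01 and -0.10, and below 0 on SH-80 arrays at -0.25, -0.10 and -0.27. One SH-42 array equalled one SH-80 array to 2 decimals, and neither fitted value passed (0.03 for SH-42, limma adjusted p = 0.832, and -0.21 for SH-80, adjusted p = 0.1). Pfkp had log ratios of 0.65, 0.41 and 0.48 on the SH-42 arrays and of 0.16, 0.38 and 0.29 on the SH-80 arrays. All 6 were above 0, and every SH-42 array was above every SH-80 array. Pfkp rose by 0.52 ± 0.0721 for SH-42 (limma adjusted p = 0.0499), and its value for SH-80 was 0.28 ± 0.0721 (adjusted p = 0.0512), on the other side of the threshold of 0.05 by very little. Without SH-42 replicate 1 the SH-42 value of Pfkp was 0.45 (adjusted p = 0.0443). Within the slide that holds both compounds, where SH-42 has 1 array that is assumed to vary like the others, it was 0.48 (adjusted p = 0.0639), and a fixed effect for slide gave 0.51 (adjusted p = 0.118). Pfkl, the liver form of the same enzyme, was above 0 on all arrays, with 0.29, 0.18 and 0.28 for SH-42 and 0.04, 0.21 and 0.18 for SH-80. Its fitted values of 0.25 and 0.14 did not pass (limma adjusted p = 0.132 and 0.141).

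Aldoa, the aldolase that cleaves fructose 1,6-bisphosphate, had log ratios of 0.26, -0.06 and -0.10 on the SH-42 arrays, and of -0.28, -0.05 and -0.30 on the SH-80 arrays. Only SH-42 replicate 1 was above 0, and the compounds overlapped. The fitted values were 0.03 for SH-42 and -0.21 for SH-80 (limma adjusted p = 0.84 and 0.156). The brightest probe of Gapdh, glyceraldehyde-3-phosphate dehydrogenase, read -0.07, -0.42 and -0.38 on SH-42 arrays against -0.52, -0.44 and -0.58 on SH-80 arrays. All 6 were below 0, and the groups did not overlap, though by only the gap between -0.42 and -0.44. By this probe Gapdh fell by 0.51 ± 0.0814 for SH-80 (limma adjusted p = 0.0273), and its SH-42 value of -0.29 ± 0.0814 did not pass (adjusted p = 0.148). Without SH-42 replicate 1 the SH-42 value was -0.40 and did pass (adjusted p = 0.0406).

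Pgk1, phosphoglycerate kinase, lay near 0. It had -0.01, 0.06 and -0.01 on the SH-42 arrays and -0.19, -0.04 and -0.10 on the SH-80 arrays, and every SH-42 array was above every SH-80 array. Its fitted values were 0.01 and -0.11 (limma adjusted p = 0.925 and 0.19). Eno1, the broadly expressed enolase, was below 0 on every array, with -0.83, -0.21 and -0.34 for SH-42 and -0.45, -0.42 and -0.46 for SH-80. SH-42 replicate 1 was the lowest of the 6, and the other SH-42 arrays were the highest. The fitted Eno1 values of -0.46 ± 0.117 for SH-42 and -0.44 ± 0.117 for SH-80 did not pass (limma adjusted p = 0.138 and 0.0535), and without SH-42 replicate 1 the SH-42 value was -0.27 (adjusted p = 0.0792). Ldha, the lactate dehydrogenase subunit that favours lactate, had 0, -0.04 and -0.16 on the SH-42 arrays and -0.26, -0.10 and -0.22 on the SH-80 arrays, which overlapped. Its fitted values of -0.07 and -0.19 did not pass (limma adjusted p = 0.522 and 0.0808). Eno1 and Gapdh are known to have near-identical gene copies or processed pseudogenes in the mouse, so a probe may take up RNA of more than one copy.

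Without SH-42 replicate 1 the SH-42 values of the other members were -0.33 for Hk1, 0.29 for Hk2, 0.23 for Pfkl, 0.02 for Pgk1 and -0.10 for Ldha. Gpi1 was then at -0.05 and Aldoa at -0.08, both on the other side of 0 from the values with all arrays, and none of these 7 passed. The calls on SH-80 arrays depended on which arrays were in the fit. Without SH-42 replicate 1, 7 members passed for SH-80, of which Pfkp was higher and Aldoa, Eno1, Gapdh, Gpi1, Hk1 and Ldha were lower, at the same fitted values. Of all genes, 16% were then called higher and 22.8% lower. Without any one of the SH-80 arrays no member (0) and no gene (0) passed the limma test for SH-80, and 4 to 6 members had an unadjusted p under 0.05. In a fit of the SH-80 arrays alone the SH-80 values were -0.44 for Hk1 (limma adjusted p = 0.00897) and -0.51 for Gapdh (adjusted p = 0.00404). The fit within the second slide repeats these. With slide as a fixed block they were -0.51 for Hk1 and -0.44 for Gapdh (adjusted p = 0.368 for both). That block moves the SH-80 values by a slide effect estimated from the SH-42 arrays alone.

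Of the 5 members with several probes, 3 had probes of both signs for SH-42 (Gpi1, Gapdh and Ldha) and 2 for SH-80 (Gapdh and Ldha). In the fit over 29427 probes no member probe (0 of 22) passed for SH-42, where 0.455% of all probes did, and the brightest Pfkp probe had a limma adjusted p of 0.0564. At an unadjusted p under 0.05 there were 7 of the 22 for SH-42 (4 higher and 3 lower), where 23.2% of all probes were, and 12 of the 22 for SH-80 (2 higher and 10 lower), where 35% of all probes were. For SH-80, 3 member probes were lower, where 9.3% of all probes were, and none was higher (0), where 4.6% were. They were the brightest Hk1 probe, the brightest Gapdh probe and a Gpi1 probe that was not the brightest, A_55_P2022434, at -0.30 ± 0.073 (adjusted p = 0.0454). Gapdh showed the widest disagreement. Its brightest probe, A_55_P2186027, was at -0.29 for SH-42 and -0.51 for SH-80, whereas the other 6 Gapdh probes lay between -0.02 and 0.17 for SH-42 and between -0.25 and 0.07 for SH-80, and none of these 6 passed.

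With the median of all its probes, Gapdh had a log ratio of 0.04 for SH-42 and of -0.19 for SH-80 (limma adjusted p = 0.769 and 0.145). The Gapdh call for SH-80 thus rests on 1 probe of 7. Pfkp's probe A_52_P572045 read 0.55, -0.06 and 0.05 on the SH-42 arrays and -0.01, 0.03 and 0.03 on the SH-80 arrays, near 0 on all but SH-42 replicate 1. The median of both Pfkp probes was 0.35 for SH-42 and did not pass (limma adjusted p = 0.156). The second Hk1 probe, A_55_P2118843, was below 0 for both compounds, at -0.13 for SH-42 and -0.19 for SH-80, and did not pass (limma adjusted p = 0.419 and 0.191). Ldha's probe A_55_P2141878 was above 0 on all 6 arrays, at 0.25, 0.20 and 0.28 for SH-42 and 0.08, 0.36 and 0.33 for SH-80, opposite to the brightest Ldha probe, and it did not pass (limma adjusted p = 0.154 and 0.058).

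**Figure D2:**
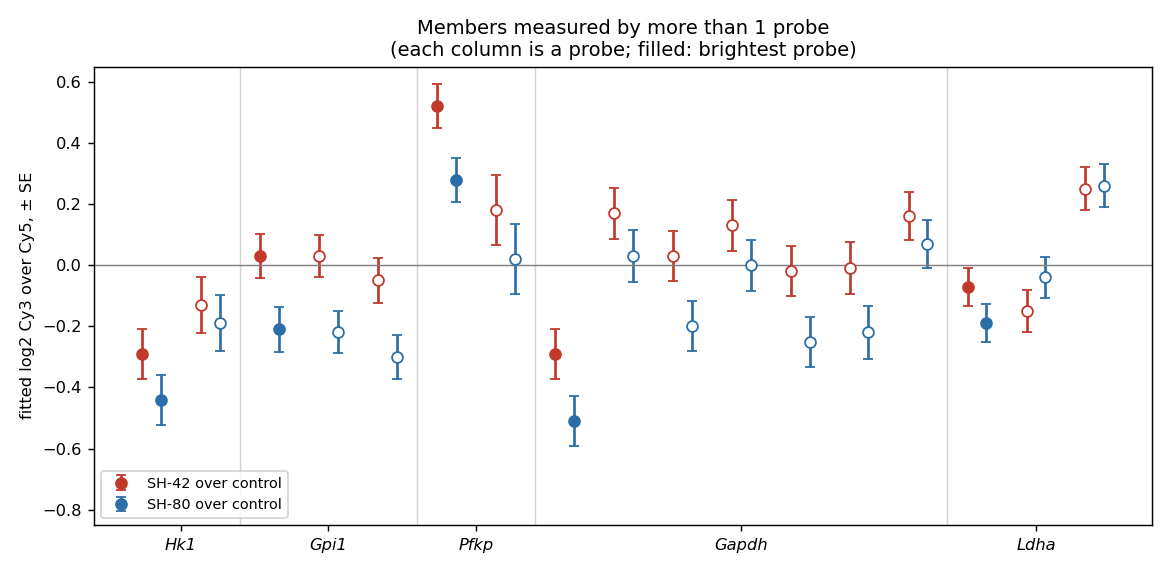
Fitted log2 of Cy3 over Cy5 ± SE for each probe of the 5 members measured by more than 1 probe, with SH-42 over control in red and SH-80 over control in blue; filled points are the brightest probe of the gene. The brightest Gapdh probe lies at -0.29 and -0.51, below the other 6 Gapdh probes for both compounds, and 1 Ldha probe lies above 0 for both compounds.

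Set against each other, the compounds gave no difference that passed for any member. In SH-42 minus SH-80, 0 members and 0 of all genes (0%) passed the limma test, and 941 genes (3.91%) had an unadjusted p under 0.05. Among them was 1 member, Hk2, at 0.28 (95% interval 0.03 to 0.53, unadjusted p = 0.0345, limma adjusted p = 0.691). The difference was above 0 for 9 of 10 members, with a median of 0.187, while 53.6% of all genes were above 0 with a median of 0.015. With processed signals the members' median was 0.094 (all genes 0.054), and in the deposited value table it was 0.061 (all genes 0.021), with 9 and 8 of 10 members above 0. Under median centring in place of loess the members' median turned to -0.116, with 2 of 10 above 0. It was 0.132 without SH-42 replicate 1. Within the second slide it was 0.118, from SH-42 replicate 3 alone against the SH-80 arrays. Slide as a fixed block gives that same value by design, since only the second slide held both compounds. Eno1 was the member below 0, at -0.02 (interval -0.42 to 0.38). The intervals of the other members ran from -0.13 to 0.43 for Hk1 and from -0.06 to 0.31 for Pgk1, for example, so with 3 arrays per compound a difference anywhere within these intervals remains possible.

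The arrays of both compounds did not overlap for 4 members in the log ratio, Hk2, Pfkp, Gapdh and Pgk1, with SH-42 higher in each. Of all genes, 8.08% did so with SH-42 higher and 13.5% in either direction. The log ratio compares the compounds through the channels labelled control, whose pools may have been shared.

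Each channel was then taken alone, after the arrays were brought to a common scale. In the Cy3 channel, labelled with the compounds, the members hardly differed between arrays. The SD of a member probe over the 6 arrays was 0.0187 to 0.0841 in Cy3, against 0.0898 to 0.217 in Cy5, and it was larger in Cy5 for 22 of 22 probes. Over all genes the median SD was 0.0682 in Cy3 and 0.142 in Cy5, beside 0.0444 and 0.144 over the member probes. For Pfkp the log2 Cy3 signal was 12.88, 12.87 and 13 on the SH-42 arrays and 12.95, 12.96 and 12.95 on the SH-80 arrays. Its log2 Cy5 signal was 12.22, 12.46 and 12.51 on the SH-42 arrays and 12.79, 12.57 and 12.66 on the SH-80 arrays. The Cy3 signals of Pfkp overlapped and its Cy5 signals did not.

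Hk1 had log2 Cy3 signals of 15.94, 15.89 and 15.88 on the SH-42 arrays and of 15.89, 15.91 and 15.91 on the SH-80 arrays. In Cy5 they were 16.14, 16.36 and 16.08 on the SH-42 arrays and 16.27, 16.24 and 16.50 on the SH-80 arrays. The Cy3 signals of Hk1 spanned 0.0524 and its Cy5 signals 0.427 over the 6 arrays. Gapdh, by its brightest probe, had log2 Cy3 signals of 17.47, 17.30 and 17.43 on the SH-42 arrays and of 17.31, 17.34 and 17.27 on the SH-80 arrays. In Cy5 they were 17.54, 17.72 and 17.80 on the SH-42 arrays and 17.83, 17.77 and 17.84 on the SH-80 arrays. SH-42 replicate 1 was the lowest of the 6 in Cy5.

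**Figure D3:**
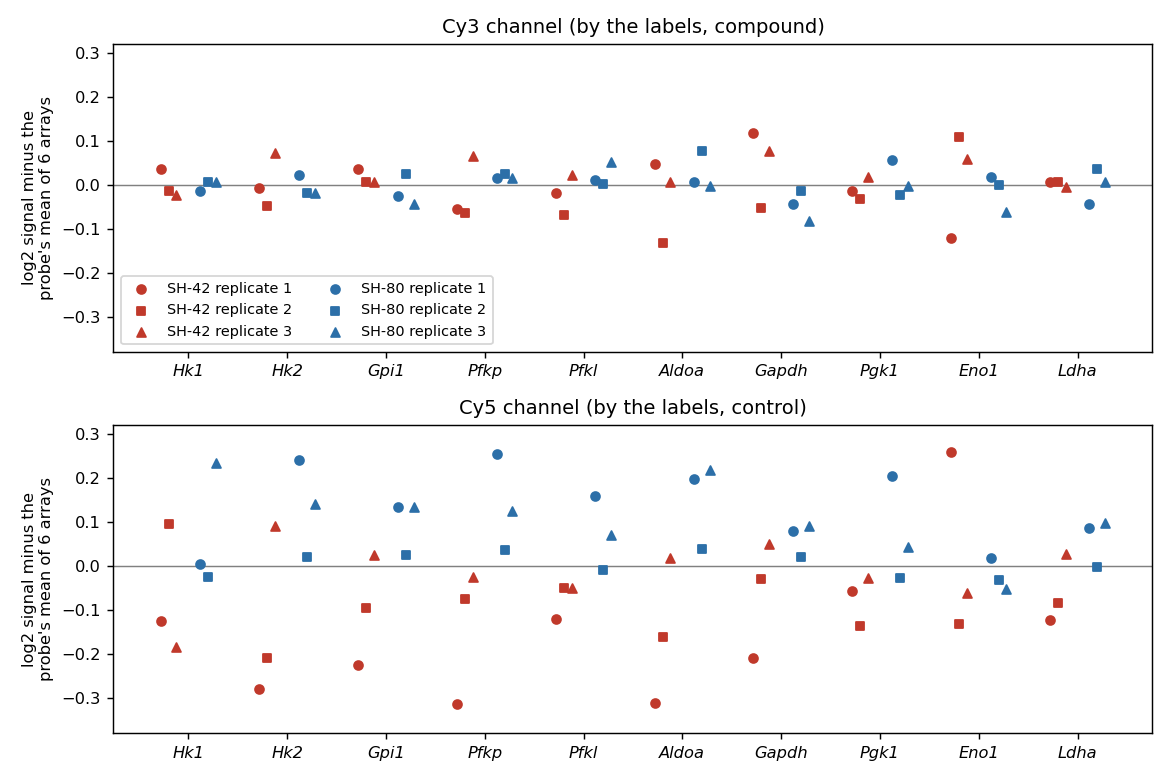
Normalized log2 signal of each member's brightest probe on each array, minus the probe's mean over the 6 arrays, in the Cy3 channel (top, by the labels compound) and the Cy5 channel (bottom, by the labels control), on the same scale. SH-42 arrays are red and SH-80 arrays blue. The points scatter more widely in Cy5. There SH-42 replicate 1 is lowest for Hk2, Gpi1, Pfkp, Pfkl, Aldoa, Gapdh and Ldha, and highest for Eno1.

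Between the compounds, the Cy3 difference of SH-42 minus SH-80 ranged from -0.06 for Aldoa to 0.10 for Gapdh, and 0 members had an unadjusted p under 0.05, where 9.27% of all genes did. No gene (0) passed after adjustment. In Cy5 the difference was below 0 for 9 of 10 members, with a median of -0.149. Of all genes, 43.8% were above 0 in Cy5, with a median of -0.026. Among the members, 2 had an unadjusted p under 0.05, where 2.29% of all genes were lower by that rule. They were Aldoa at -0.30 (95% interval -0.56 to -0.04) and Pfkp at -0.28 (interval -0.54 to -0.01), each with a limma adjusted p of 0.701. No gene (0) passed in Cy5, with 869 genes (3.61%) at an unadjusted p under 0.05. Without SH-42 replicate 1 the Cy5 differences were -0.22 for Aldoa and -0.19 for Pfkp. The place of the difference depended on the processing. Under median centring in place of loess the Cy5 differences ran from -0.17 for Pfkp to 0.21 for Eno1. Hk1, Gapdh, Eno1 and Ldha were then above 0 in Cy5, and Pgk1 was at 0. In Cy3 every member was then below 0, from -0.23 for Aldoa (unadjusted limma p under 0.05) to -0.08 for Gapdh. The 3 SH-42 arrays lay below the 3 SH-80 arrays in Cy5 for 4 members, Gpi1, Pfkp, Pfkl and Aldoa, where 8.65% of all genes did, and in Cy3 the arrays of both compounds overlapped for every member, with 0 apart, where 16.4% of all genes were apart in either direction.

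**Figure D4:**
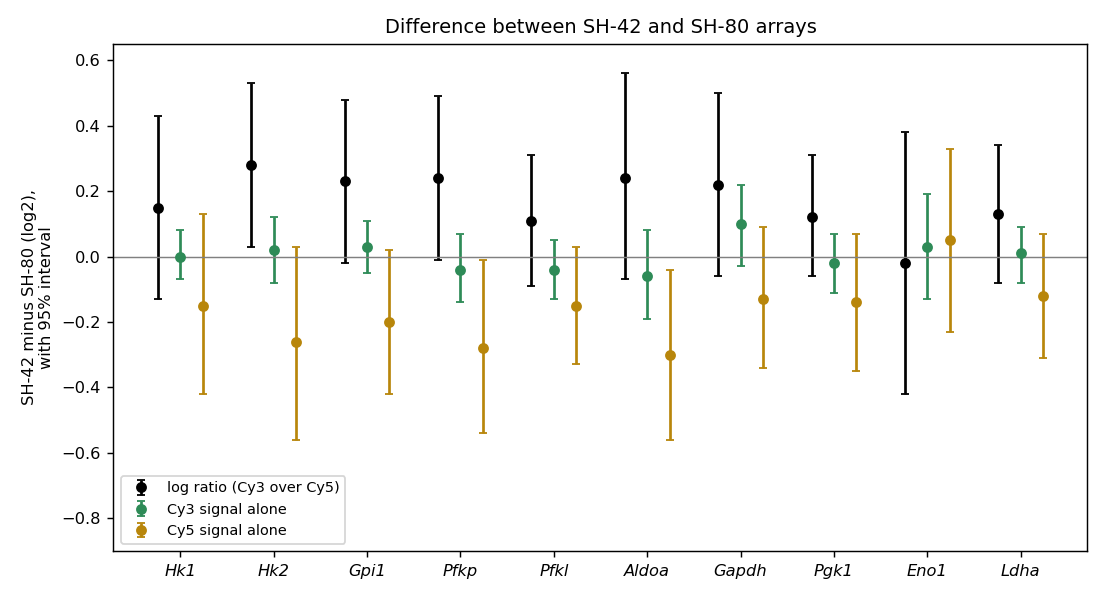
SH-42 minus SH-80 for each member, with 95% intervals, in the log2 ratio of Cy3 over Cy5 (black), the log2 Cy3 signal alone (green) and the log2 Cy5 signal alone (ochre). The Cy3 differences lie between -0.06 and 0.10, and the Cy5 differences are below 0 for all members but Eno1.

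Of 56 further genes of glucose handling, 51 were measured well enough to be tested. None passed the limma test for SH-42 (0), and 11 had an unadjusted p under 0.05, where 23.4% of all genes did. These values come from the loess-normalized fit alone, and the lists were not run under the alternatives. For SH-80, 1 was higher and 2 were lower by the limma test, where 4.61% and 10.1% of all genes were, and 16 had an unadjusted p under 0.05, where 35.5% of all genes did. Tpi1, triosephosphate isomerase, which interconverts the products of aldolase, was above 0 on all 6 arrays, at 0.26, 0.21 and 0.27 for SH-42 and 0.13, 0.29 and 0.25 for SH-80. It rose by 0.23 ± 0.0555 for SH-80 (limma adjusted p = 0.0454) and stood at 0.25 for SH-42 (adjusted p = 0.126). Slc16a1, a monocarboxylate transporter that carries lactate, was below 0 on all 6 arrays and fell by 0.35 ± 0.0718 for SH-80 (limma adjusted p = 0.0335), with -0.25 for SH-42 (adjusted p = 0.148). Pfkfb4, a bifunctional enzyme that sets the level of fructose 2,6-bisphosphate, fell by 0.27 ± 0.0556 for SH-80 (limma adjusted p = 0.0336), with -0.23 for SH-42 (adjusted p = 0.135).

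By role, 16 other enzymes and isozymes of the pathway had a median of 0.059 for SH-42 and 0.038 for SH-80. Pkm, the main pyruvate kinase of the retina, was at 0.24 for SH-42 and 0.02 for SH-80, and Ldhb, the other lactate dehydrogenase subunit, at 0.21 and 0.19. Pgam1, phosphoglycerate mutase, was at 0.02 for SH-42 and -0.26 for SH-80, and Eno2, the neuronal enolase, at 0.06 and -0.23. Aldoc, the aldolase of nervous tissue, was at 0.03 for SH-42 and -0.14 for SH-80, and Pfkm, the muscle form of phosphofructokinase, at 0.18 and -0.04. None of these 6 passed. All 6 were highest on SH-42 replicate 1, at 0.33 to 0.57.

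The 8 transport genes had a median of -0.109 for SH-42 and -0.139 for SH-80. Slc2a1, the main glucose transporter of the retina, was below 0 on all arrays, with -0.76, -0.14 and -0.57 for SH-42 and -0.15, -0.55 and -0.13 for SH-80, and did not pass (-0.49 and -0.28, limma adjusted p = 0.146 and 0.203). Of the 9 regulators, 8 were below 0 for SH-42 and 8 for SH-80, with medians of -0.121 and -0.166. Of all genes, 43% were above 0 for SH-42 and 44.4% for SH-80. Tigar, a regulator below 0 for both compounds by its brightest probe, had another probe of the opposite sign for both. Pfkfb3 was at -0.12 and -0.06, and Pdk1, a kinase that restrains pyruvate dehydrogenase, at -0.07 and 0.11, and neither passed. Bpgm, which makes 2,3-bisphosphoglycerate, was at -0.27 for SH-42 and -0.22 for SH-80, and Pdk2 at -0.24 and -0.30 (limma adjusted p = 0.133, 0.0655, 0.161 and 0.0513).

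The 7 genes of pyruvate entry into mitochondria had medians of 0.071 for SH-42 and 0.03 for SH-80. Mpc1, a subunit of the mitochondrial pyruvate carrier, was below 0 on all 6 arrays (-0.20 for SH-42 and -0.15 for SH-80) by its brightest probe, while its other probe had the opposite sign for both compounds. Dld, a subunit shared by the pyruvate and other dehydrogenase complexes, was above 0 on all 6 (0.27 for both). Neither passed (limma adjusted p = 0.135 and 0.0859 for Mpc1, 0.15 and 0.0669 for Dld). The 7 pentose phosphate genes had medians of -0.014 and 0.105, and the 4 gluconeogenesis genes of -0.005 and -0.02, for SH-42 and SH-80 in that order. Fbp1, fructose-1,6-bisphosphatase, had the smallest p of the 4 for SH-80, at -0.30 (limma adjusted p = 0.0573).

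Markers of retinal cell types moved between arrays beside these values. All 8 rod markers were well above background in both channels on all 6 arrays. Their median log ratio was 0.549, -0.00737 and 0.0267 on the SH-42 arrays and -0.212, 0.0792 and 0.0657 on the SH-80 arrays, highest on SH-42 replicate 1. The medians of the cone, bipolar, amacrine and ganglion cell markers (6 each) were highest on that array too, at 0.35, 0.826, 1.3 and 0.933, and lay between -0.417 and 0.0504 on the other arrays. Of the members, 7 were highest on that array (Hk2, Gpi1, Pfkp, Pfkl, Aldoa, Gapdh and Ldha), and Eno1 was lowest there. The skeletal muscle markers had a median of -2.02 on that array and of -0.824 to 0.444 on the others. The 5 pigment epithelium markers tested were above 0 on every array by their median, at 0.284 to 1.29 for SH-42 and 0.455 to 1.1 for SH-80. The 10 lens markers, of a tissue next to the retina, had medians of 0.583 to 2.14 on SH-42 arrays and of 1.47 to 3.36 on SH-80 arrays, and 9 of the 10 were above background in Cy5 on all arrays. The 6 microglia markers had medians of -1.7 to 1.66 on SH-42 arrays and 1.18 to 1.6 on SH-80 arrays, and the 6 Muller glia markers were at -0.866 on SH-42 replicate 1. For each of these marker lists the range over the 6 arrays was larger in Cy5, labelled control, than in Cy3. It was 2.53 in Cy5 against 0.043 in Cy3 for the lens markers, and 3.4 against 0.203 for the microglia markers. The part of these cells in the members' values was not tested.

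Across the 6 arrays the mean log ratio of the 10 members was 0.08, -0.02 and -0.03 for SH-42 and -0.21, -0.07 and -0.20 for SH-80. Among 9371 named genes outside the lists, well above background in both channels on all 6 arrays and with an SD of at least 0.1, the 5 whose log ratios followed that mean most closely were Dmxl2 (Pearson's r = 0.995), Pan3 (0.99), Srpx (0.989), Dusp11 (0.977) and Mutyh (0.976). These values describe 6 arrays that share dyes, slides and possibly control pools. Dmxl2 had log ratios of -0.05, -0.16 and -0.18 on the SH-42 arrays and of -0.42, -0.27 and -0.42 on the SH-80 arrays, lower on each array than the mean of the members.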

How the data were processed

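The 10 members, the pathway and marker lists and the alternatives were chosen with earlier results of these data known. Per the file headers, the deposited scanner files hold spot and background intensity for both dyes and a log10 ratio of processed red over processed green. Feature Extraction is given as version 11.0.1.1 there and as 9.3.2.1 in the submitters' processing notes. The values deposited for the series correlated with log2 of processed Cy5 over Cy3 at 0.9995 to 0.9998 per array (column medians -0.0754 to -0.0464). Their direction is thus known, while a correlation does not give scale or offset. Which channel held treated RNA is not settled. Over all genes, the log2 signals of pairs of arrays correlated at 0.997 to 0.999 in Cy3 and at 0.962 to 0.998 in Cy5.

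Median signals were background-corrected (normexp, offset 50) and loess-normalized within arrays. Flags well above background were part of the files, and a probe was used if so flagged in either channel on at least 3 arrays. Probes were named through RefSeq accessions (26055 of 39429). The brightest probe stood for a gene, which left 24055 genes, of which 15912 had a symbol. limma 3.58.1 in R 4.3.3 fitted 1 coefficient per compound over 6 arrays (lmFit, eBayes, two-sided, Benjamini-Hochberg, threshold 0.05). For single channels, Aquantile normalization between arrays was added. Precision is limited by having 3 arrays per compound. Every member and probe is named. From the other lists the text names 10 genes in every case and up to 3 of smallest p per list and comparison. The genes most like the members were taken by correlation. Figures used matplotlib 3.10.9 in Python 3.11.15.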

Additional observations from a re-analysis of the deposited data

Results flagged for a closer look

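In the Cy5 channel, labelled control on every array, 1 of the 22 member probes had an array far from the other 5. The Pfkp probe A_52_P572045, not the brightest of its gene, had a log2 Cy5 signal of 9.09 on SH-42 replicate 1, and the next lowest array was at 9.52. Its Cy3 signal on the same array was 9.63. Chance alone marks about 1 in 20 such sets of values.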

How the results depend on the processing

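The counts of members past the threshold moved with most choices. For SH-42, where Pfkp was the 1 member called, 4 members passed with no background correction (3 higher and 1 lower), 3 in the deposited value table, 7 with median centring in place of loess (all 7 lower), and 0 with a normexp offset of 0, with scale normalization between arrays, with no filter on dim probes, with the median of a gene's probes, with trend and robust, with slide as a fixed or a random block, within slide 2 and in a fit of the SH-42 arrays alone. Leaving out each array in turn gave 0 to 2. For SH-80, with 2 called, 4 passed with no background correction and 4 with no filter, 1 with processed signals and 7 with median centring. In a fit of the SH-80 arrays alone 6 passed, and for SH-80 the fit within slide 2 is the same fit. With scale normalization, with the median of a gene's probes, with trend and robust and with slide as a fixed block, 0 passed. Leaving out each array gave 0 to 7. The cause was not tested. The calls of all genes ranged from 0 to 9032 for SH-42 (144 as reported) and from 0 to 9346 for SH-80 (3529 as reported).

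The median of the members for SH-42 (0.018) was -0.76 with median centring and -0.102 within slide 2. For SH-80 (-0.199) it was -0.023 with processed signals, -0.014 in the deposited value table and -0.648 with median centring. With slide as a fixed block, whose effect came from the SH-42 arrays alone, it was -0.11. For SH-42 minus SH-80 (0.187) it was 0.094 with processed signals, 0.061 in the deposited value table and -0.116 with median centring. Leaving out each array gave -0.064 to 0.057, -0.251 to -0.167 and 0.132 to 0.239. Median centring also moved the median of all genes, to -0.245 for SH-42 and -0.149 for SH-80, against -0.034 and -0.03. Under it, Gpi1 at -0.72, Aldoa at -0.8 and Pgk1 at -0.68 turned to lower for SH-42. The call of Pfkp for SH-42 was lost in 15 of 20 alternatives, that of Hk1 for SH-80 in 7 and that of Gapdh for SH-80 in 9. No member passed for SH-42 minus SH-80 (0) in the log ratio or either channel under any alternative run, though 849 of all genes passed in Cy3 without SH-42 replicate 3.

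Deviations of same-numbered arrays of the compounds correlated at -0.153, -0.43 and 0.182, and those of differently numbered arrays at -0.301 to 0.344. With 3 arrays per compound these values cannot decide whether replicate numbers pair the arrays. With the replicate block, 0 members and 0 genes passed for SH-42 minus SH-80 (707 genes at an unadjusted p under 0.05), and the median was 0.187. The alternative with mean in place of median spot signals was not run, because the files used here give median signals alone.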
